A study of Mus musculus with 9 samples.

Results

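The motile cilia and axoneme genes are described here across the cell populations of a mouse ependymoma series. The set was chosen by name and held 72 of the 32285 genes in the count tables. It took the 8 symbols Foxj1, Dynlrb2, Ccdc153, Tmem212, Ak7, Rarres2, Mcidas and Gmnc, and every symbol that opens with Cfap, Dnah, Dnai, Dnaic, Rsph or Tekt followed by a digit. By role these were 33 cilia and flagella associated proteins, 16 genes of dynein heavy chain names (including the antisense transcript Dnah2os), 8 radial spoke genes, 5 tektins, 3 intermediate or light dynein chains, 3 transcriptional regulators and 4 other genes. Single cells from 5 tumors of NestinCreERT2;Fus1 mice and from the brains of 4 control NestinCreERT2;TdT mice were profiled by droplet RNA-seq that reads transcripts from the 5′ end. All mice were 6 to 8 weeks old, and both groups carried the tamoxifen-inducible Cre driven by Nestin, a gene of neural stem and progenitor cells. The tumor mice carried in addition the ZFTA-RELA fusion, silent until recombined, the oncogenic driver of most supratentorial ependymomas, which is expressed under Nestin control only in cells where Cre has acted. The control genotype has TdT in its place, and the colony of the fusion allele was bred to C57BL/6J mice. Dissociated tissue was cleared on Percoll and sorted with DAPI and an antibody to the red cell protein Ter119.

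A motile cilium beats because dynein arms on its outer doublet microtubules slide one doublet against the next. The dynein heavy chains are the motors, the intermediate and light chains hold them in the arms, the radial spokes pass signals from the central pair to the arms, and the tektins form filaments in the wall of the doublets. The geminin relatives GEMC1 (Gmnc) and multicilin (Mcidas) start the multiciliated program, and the forkhead factor FOXJ1 with the RFX factors switches on the genes of the axoneme. In the brain these genes are best known from the multiciliated ependymal cells that line the ventricles.

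After filtering, 20404 control cells (4025 to 6365 per mouse) and 15761 tumor cells (1587 to 5101 per mouse) remained, with 5906408 to 37553315 unique molecular identifiers (UMIs, counted molecules) per mouse and a median of 2031 to 6524 UMIs per cell. Neuron-like cells made up 50.3% to 61.6% of control cells and 0% to 4.41% of tumor cells, so the groups differed in makeup before any gene was compared. A UMI of the luciferase, IRES or fusion sequence that the study added to the reference marked 6089 fusion-allele cells (82, 948, 96, 3764 and 1199 in tumors 1 to 5), once cells with UMIs of 4 or more of 20 ependymal markers were set aside. In the controls 0, 1, 6 and 5 cells held such a UMI. Levels are given as counts per 1e+06 UMIs of the same cells (CPM), which compares tags and not transcripts per length. In a sum over cells, fewer cells of a type and less RNA per cell cannot be told apart.

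Of the 11 populations compared, ependymal-like cells held the genes at by far their highest levels, and there were few of them. A sub-cluster of 44 cells, found with the 72 genes left out of the clustering, had UMIs of all 20 ependymal markers and of 14.4 of them per cell on average. Most of these markers, among them Hydin and Spag17, are axoneme genes too. Axoneme genes outside the 72 were not left out of the clustering. Controls 1 to 4 gave 3, 7, 5 and 1 of the 44 cells, and tumors 1 to 5 gave 12, 5, 0, 3 and 8 (0 of 1587 cells in tumor 3 allows a share of up to 0.189%). All 3 cells of tumor 4 and 1 of the 8 cells of tumor 5 also carried a fusion-allele UMI, and none of the cells of tumors 1 and 2 did. Of kept cells they were 0.0827% ± 0.0582 (SD, n = 4) in the control mice and 0.190% ± 0.197 (SD, n = 5) in the tumor mice, a difference of 0.107 percentage points that was smaller than the spread between tumors (two-sided exact permutation test, p = 0.349).

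The summed level of the 72 genes in ependymal-like cells was 16562 CPM ± 4425 over 4 control mice and 18531 CPM ± 1756 over 4 tumor mice (SD). The control range, 10404 to 20041 CPM, overlapped the tumor range of 16091 to 20045 CPM. Over all kept cells the sum was 682 CPM ± 40.4 over 4 control mice and 689 CPM ± 163 over 5 tumor mice (SD), and in fusion-allele cells it was 709 CPM ± 66.1 (SD, n = 5). Microglia-like cells, which do not build motile cilia, held 404 to 488 CPM in controls and 184 to 255 CPM in tumors, and the 3000 barcodes with the fewest UMIs of each library (medians of 559 to 1338 UMIs) held 462 to 626 CPM. Whether those barcodes held free RNA, broken cells or whole cells was not tested. The sums of fusion-allele cells and of all kept cells were thus of the same order as those of the barcodes with the fewest UMIs, while those of ependymal-like cells were far above them.

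**Figure D1:**
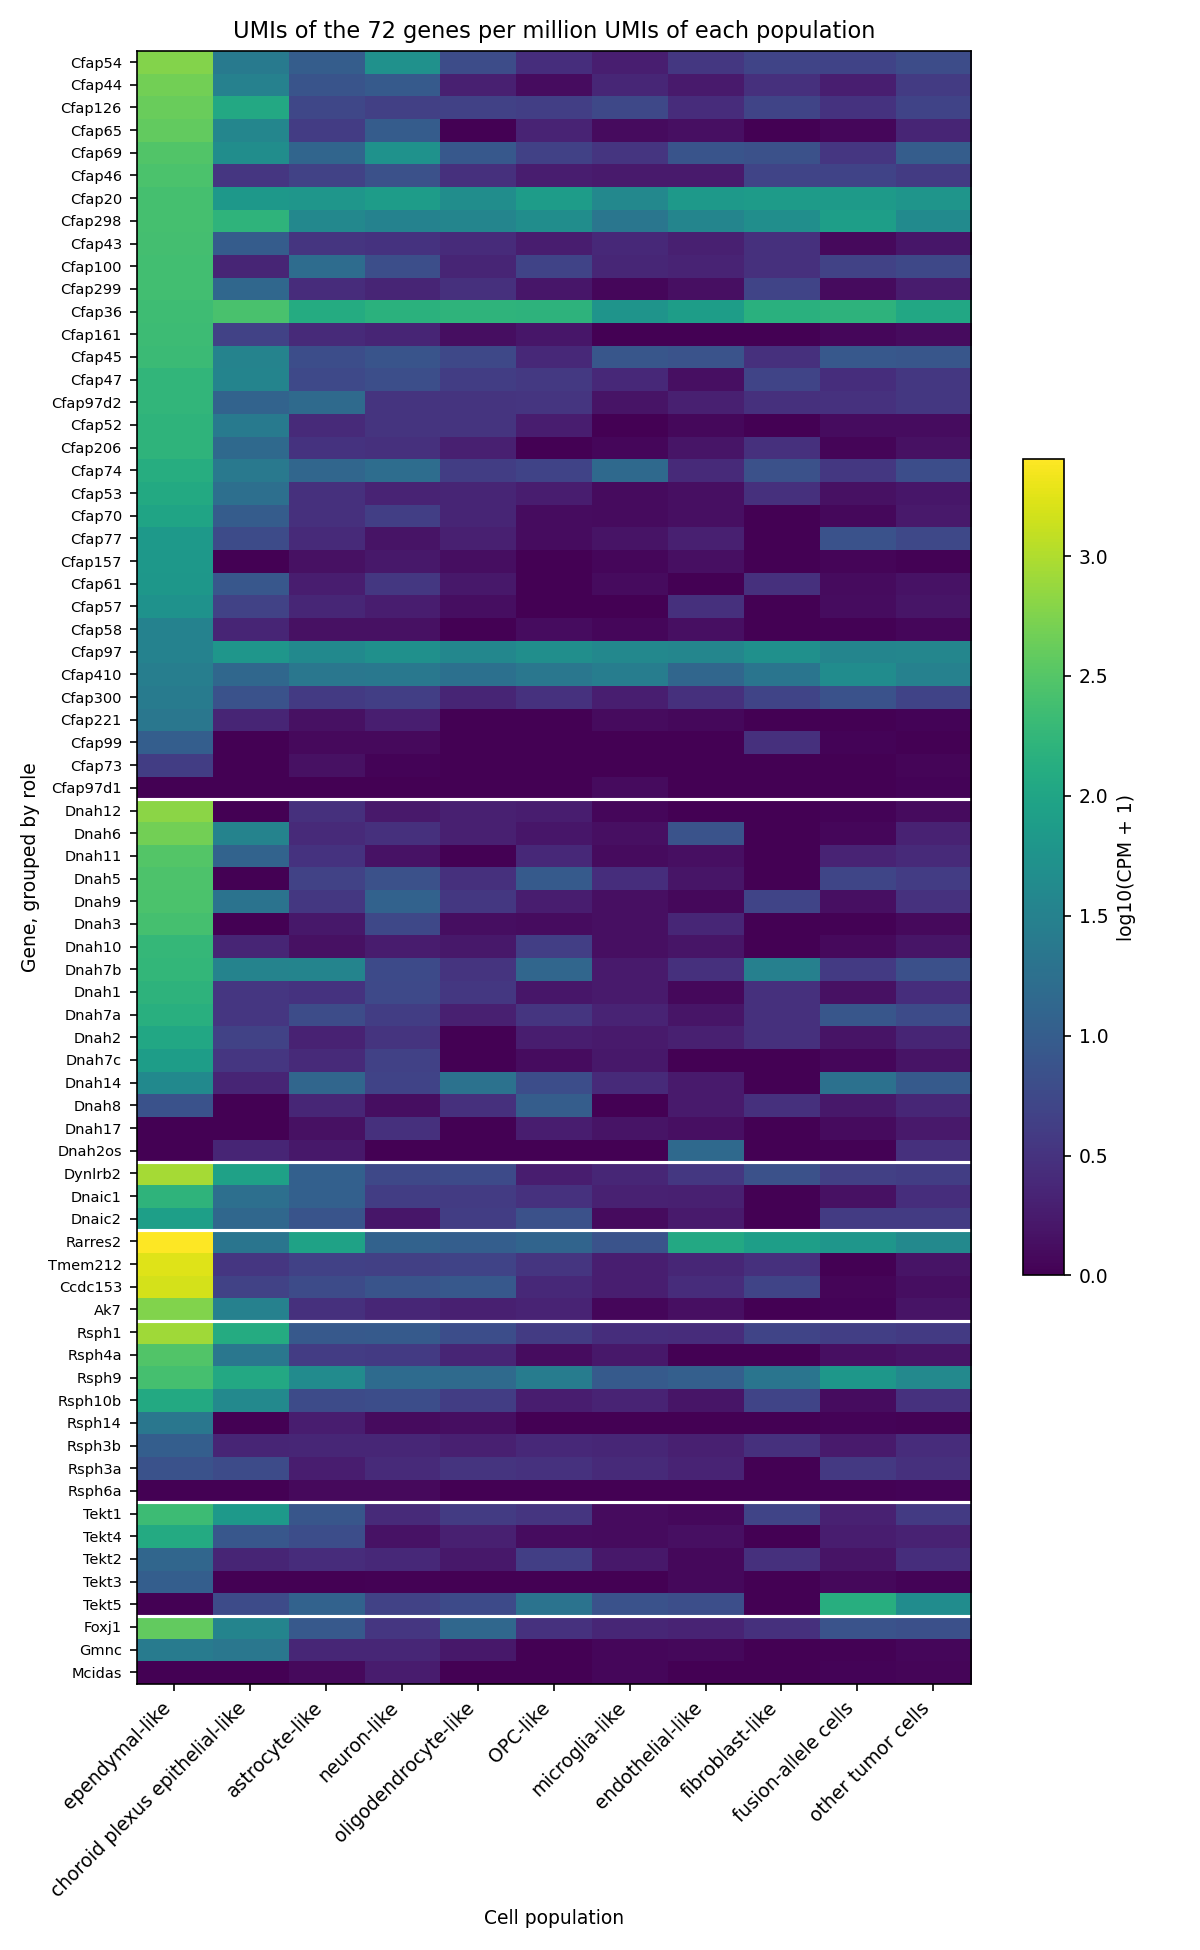
Colour shows log10(CPM + 1) of each of the 72 genes (rows, grouped by role) in 11 cell populations (columns), with UMIs pooled over all mice. The ependymal-like column is bright for nearly every role, with 62 genes at their highest there, while Tekt5 stands at 0 in that column and at 136.5 CPM in fusion-allele cells.

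Of the 72 genes, 66 had UMIs in the 44 ependymal-like cells and 62 were higher there than in any other of the 11 populations, 37 of them at least 10 times and 3 at least 100 times the next. These counts describe the sub-cluster and are not a test. A single UMI in these cells is 3.10 CPM, and some of the 62 genes rest on few UMIs. Cfap73 rests on 1, Rsph3a on 2, and Cfap99, Rsph3b and Tekt3 on 3 each, with Tekt3 among the 37. The genes at 100 times or more were Tmem212 (1727 CPM, against at most 3.86 CPM in the other populations), Ccdc153 (1529 CPM, against 7.71 CPM) and the inner-arm dynein heavy chain Dnah12 (648 CPM, against 1.96 CPM). Rarres2, which encodes the secreted attractant chemerin, had the highest level of all at 2539 CPM and a UMI in all 44 cells, but it also reached 113 CPM in endothelial-like, 89.3 CPM in astrocyte-like and 79.2 CPM in fibroblast-like cells. The dynein light chain Dynlrb2 followed at 890 CPM, the radial spoke head gene Rsph1 at 834 CPM, the central-pair gene Cfap54 at 586 CPM and the adenylate kinase Ak7 at 583 CPM. Rsph4a, another radial spoke gene, stood at 301 CPM and Tekt1, a tektin, at 217 CPM, and Rsph6a and Cfap97d1 had no UMI in these cells.

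Among the regulators, Foxj1 had UMIs in 37 of the 44 ependymal-like cells and 384 CPM, against 33.9 CPM in choroid plexus epithelial-like cells, which also carry cilia, and 12.9 CPM in oligodendrocyte-like cells. Gmnc stood at 24.8 CPM (8 UMIs) in ependymal-like and 21.3 CPM in choroid plexus epithelial-like cells. Mcidas had no UMI in the ependymal-like cells, and 3 counts in these cells, the limit that a count of 0 allows, would be 9.30 CPM. Its highest level was 0.804 CPM in neuron-like cells.

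UMIs of some of the genes were found in all 11 populations, at levels near those of the barcodes with the fewest UMIs. Cfap36, which binds a small GTPase of the cilium, ranged from 56.9 CPM in microglia-like to 265 CPM in choroid plexus epithelial-like cells. Cfap20 stood at 37.7 to 75.0 CPM outside ependymal-like cells and Cfap97 at 31.0 to 61.4 CPM in the 11 populations. The barcodes with the fewest UMIs of tumors and of controls had 110 and 223 CPM of Cfap36, 41.2 and 58.8 CPM of Cfap20 and 30.4 and 45.3 CPM of Cfap97, so these values do not show which populations expressed the genes. Dnah2os, an opposite-strand transcript of the dynein locus Dnah2, was highest in endothelial-like cells at 13.7 CPM, and Dnah8 in OPC-like cells at 9.19 CPM. In ependymal-like cells 40 genes had a UMI in at least 50% of the cells, and 35 of those 40 had one in under 5% of fusion-allele cells. The 5 highest genes gave 40.2% of the set's UMIs in ependymal-like cells and 67.6% in fusion-allele cells, where Cfap36, Tekt5, Cfap298, Cfap20 and Rsph9 led.

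A small group of 15 cells, all from tumor 2 and led by the contractile gene Tagln, was left unnamed because muscle-type markers led it, although it too had UMIs of all 20 ependymal markers. Its summed level of the set was 12373 CPM, with Tmem212 at 1380 CPM, Ccdc153 at 1255 CPM, Foxj1 at 454 CPM and Dnah12 at 116 CPM. These cells were not among the 11 populations, and 8 of the 62 genes stood higher in them than in ependymal-like cells, among them Foxj1, Cfap126 (525 against 428 CPM) and Cfap45 (365 against 208 CPM). Fusion-allele UMIs were present in 2 of the 15 cells. A group of 36 astrocyte-like cells led by Lcn2, with 7, 2 and 27 cells in tumors 2, 3 and 4, had 4066, 903 and 1838 CPM of the set and 214, 90.3 and 40.3 CPM of Foxj1. They had 321, 0 and 5.04 CPM of Tmem212 and 150, 0 and 35.3 CPM of Ccdc153 in these tumors. With both small groups counted, 1 of the 62 genes was at least 10 times higher in ependymal-like cells than anywhere else.

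The sequences just upstream of 4 genes with high ependymal levels were picked to show what a match looks like, and that of Tekt5 is shown because the text returns to this gene. They come from RefSeq (GRCm38.p6), cover 200 bases, lie wholly before the start sites of both RefSeq and the GENCODE annotation, and are written 5′ to 3′ on the strand of the gene. Capitals mark matches on either strand to GTTGCC, core letters of the X-box that RFX factors bind, to the longer palindromic X-box that contains it, or to the forkhead letters GTAAACA. Cfap44 lies at chr16:44394596-44394795 (plus strand), Dynlrb2 at chr8:116504774-116504973 (plus), Ccdc153 at chr9:44240476-44240675 (plus), Ak7 at chr12:105705776-105705975 (plus) and Tekt5 at chr16:10395491-10395690 (minus).
Cfap44: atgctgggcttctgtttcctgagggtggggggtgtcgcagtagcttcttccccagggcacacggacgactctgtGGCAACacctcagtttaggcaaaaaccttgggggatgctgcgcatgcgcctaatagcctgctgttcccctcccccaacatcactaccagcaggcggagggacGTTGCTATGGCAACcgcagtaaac
Dynlrb2: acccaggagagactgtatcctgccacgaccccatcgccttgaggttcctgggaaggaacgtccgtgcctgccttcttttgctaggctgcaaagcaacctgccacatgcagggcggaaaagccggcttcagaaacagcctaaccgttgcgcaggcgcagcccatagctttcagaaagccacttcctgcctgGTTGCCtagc
Ccdc153: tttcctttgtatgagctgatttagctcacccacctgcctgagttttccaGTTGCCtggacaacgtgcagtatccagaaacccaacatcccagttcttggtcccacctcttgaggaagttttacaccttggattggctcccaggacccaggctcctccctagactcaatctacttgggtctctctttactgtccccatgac
Ak7: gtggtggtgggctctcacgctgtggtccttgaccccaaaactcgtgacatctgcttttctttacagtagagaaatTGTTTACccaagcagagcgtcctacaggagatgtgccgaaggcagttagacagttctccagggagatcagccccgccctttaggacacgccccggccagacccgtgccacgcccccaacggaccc
Tekt5: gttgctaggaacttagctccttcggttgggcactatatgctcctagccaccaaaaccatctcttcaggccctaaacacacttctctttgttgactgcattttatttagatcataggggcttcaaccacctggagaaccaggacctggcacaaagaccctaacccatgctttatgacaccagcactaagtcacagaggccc
The stretch of Cfap44, a protein of the tether between an inner dynein and its doublet, held both a full X-box and a separate GTTGCC on the opposite strand. Those of Dynlrb2 and Ccdc153 held 1 GTTGCC each, that of Ak7 held 1 forkhead match, and that of Tekt5 held none of these letters. The 4 genes are not typical of the set. Of the 50 genes highest in ependymal-like cells for which a promoter was at hand, 24 held a match to any of the motifs and 26 held none, among the latter Tmem212, Dnah12, Dnah6 and Cfap126.

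Promoters from 250 bases before to 50 after the start were at hand for 58 of the 72 genes. GTTGCC was found in 22 of them (37.9%), against 14.1% of the 27025 genes with such a promoter. The longer X-box, which contains the shorter motif, was in 3 (5.17%, against 0.503%) and GTAAACA was in 5 (8.62%, against 4.05%). The 3 with the full form were Cfap44, Cfap298 and the tektin gene Tekt4. These are matches of letters on both strands and say nothing of binding.

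Comparing all kept cells of tumors with those of controls asked how the set differed between the tissues as they were sampled. Of the 72 genes, 63 passed the filter on low counts, 12 were higher and 10 lower in tumors (edgeR quasi-likelihood test, adjusted p under 0.05), against 32.2% higher and 29.4% lower of all 17594 genes tested. With library totals without TMM scaling, which shifted the median of all genes by -0.24, 8 were higher and 11 lower, against 26.7% and 32% of all genes. The median log2 fold change with TMM was -0.21 over the 63 genes and 0.04 over all genes. In 16 of the 63 the values of the 2 groups did not overlap, against 56.9% of all genes. Both shares of called genes lay under the background, and single genes moved far in both directions.

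Tekt5 had 3.27, 4.60, 3.72 and 4.29 CPM in controls 1 to 4 and 12.2, 76.1, 22.1, 134 and 73.2 CPM in tumors 1 to 5. Every tumor exceeded every control, with a log2 fold change of 4.37 (SE 0.77, adjusted p = 0.00122, edgeR). Rarres2 had 20.6, 16.7, 13.1 and 10.7 CPM in controls and 110, 52.3, 42.9, 74.7 and 32.8 CPM in tumors. The groups did not overlap either, and the log2 fold change was 2.27 (SE 0.36, adjusted p = 0.00079, edgeR).

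Foxj1 had 3.27, 4.79, 3.66 and 3.92 CPM in controls and 12.02, 21.5, 6.26, 3.86 and 4.78 CPM in tumors. Tumors 1 to 3 lay above all controls, and tumors 4 and 5 fell within the control range. The log2 fold change of 1.59 (SE 0.54, adjusted p = 0.0264, edgeR) fell to 0.91 without tumor 2 (adjusted p = 0.0390, edgeR). The call was lost in limma voom (adjusted p = 0.0864), without the mitochondrial filter (adjusted p = 0.132, edgeR) and without control 1, 3 or 4 (adjusted p = 0.0690, 0.0630 and 0.0612, edgeR).

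Among the motor and spoke genes, the outer-arm intermediate chain Dnaic2 rose by 1.97 on the log2 scale, from 1.17 CPM ± 0.32 (SD, n = 4) to 3.91 CPM ± 1.95 (SD, n = 5). The spoke head gene Rsph9 rose by 1.85 (14.8 to 17.1 CPM in controls, 18.2 to 67.9 CPM in tumors), and the dynein heavy chain Dnah14 by 1.99 (2.95 to 3.66 CPM in controls, 3.66 to 19.6 CPM in tumors). For Dnaic2 and Rsph9 the lowest tumor lay above the highest control, while for Dnah14 these values were nearly equal. The other genes called higher were Cfap77, Tekt4, Dnah8, Cfap298, Cfap410 and Rsph3a, of which the last 5 lost their calls when 1 or another control was left out. Cfap77 rose by 3.56, with 0.553 to 0.631 CPM in controls and 16.7 CPM in tumor 5, against 0.728 to 5.80 CPM in the other tumors.

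Gmnc, the earliest regulator of the set, had 1.31, 1.44, 1.64 and 1.24 CPM in controls and 0.677, 0.118, 0.437, 0.0799 and 0.0621 CPM in tumors, without overlap, and fell by 2.54 on the log2 scale (SE 0.55, adjusted p = 0.00342, edgeR). The inner-arm heavy chain Dnah3 fell by 2.81, from 3.96 to 6.00 CPM in controls to 0.0533 to 1.35 CPM in tumors. The central-pair gene Cfap221 fell by 2.31, and Cfap69, a gene of the sperm flagellum and of olfactory cilia, by 2.13 (43.5 to 56.7 CPM in controls, 1.25 to 22.9 CPM in tumors). Both Cfap69 and Cfap54, which was also lower, stood at 53.9 and 51.3 CPM in neuron-like cells, the population that was nearly absent from tumors. Neuron-like cells pooled over tumor and control mice held 189 UMIs of Dnah3, 57 of Gmnc and 40 of Cfap221. All control cells together held 350, 102 and 69. Choroid plexus epithelial-like cells, with Gmnc at 21.3 CPM, numbered 16 to 46 in the controls, 44 in tumor 1 and 0 in tumors 2 to 5. The part of these differences in makeup was not tested. Cfap54 differed within the controls too, with 15.8 and 14.9 CPM in controls 1 and 2 and 64.6 and 60.2 CPM in controls 3 and 4, and its call was lost without control 3 or 4 (adjusted p = 0.0783 and 0.0737, edgeR). The other genes called lower were Cfap46, Cfap61, Cfap74, Dnah7c and Dnah17, at -1.13 to -2.27. Of the 22 calls, 11 held in every alternative in which the gene was tested, namely Tekt5, Rarres2, Dnaic2, Rsph9, Dnah14 and Cfap77 among the higher genes and Gmnc, Dnah3, Cfap69, Cfap74 and Cfap221 among the lower.

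Tmem212, Ccdc153 and Dnah12, the 3 genes that stood furthest above the other populations in ependymal-like cells, did not pass the test in either direction. Tmem212 had 9.09, 8.56, 6.06 and 3.09 CPM in controls and 25.6, 15.04, 0.146, 0.852 and 11.1 CPM in tumors. Tumors 1, 2 and 5 were above all controls and tumors 3 and 4 were below all of them (log2 fold change 0.86, SE 0.97, adjusted p = 0.458, edgeR). Dnah12 had a log2 fold change of -0.99 (adjusted p = 0.245, edgeR). Ccdc153, Dynlrb2 and Ak7 had the same split as Tmem212, with the values of tumors 3 and 4 below those of every control, and adjusted p of 0.688, 0.286 and 0.578 (edgeR). Tumors 3 and 4 were also the tumors with the fewest ependymal-like cells, 0 and 3, but controls 1 and 4 had only 3 and 1. In controls, ependymal-like cells held 151 of 472 Tmem212 UMIs and 85 of 637 Ccdc153 UMIs. In tumors they held 406 of 616 and 408 of 601. The part of the number of ependymal-like cells in the low values was not tested. Without the cells that held 4 or more ependymal markers, 22 of 62 genes tested were lower in tumors and 10 higher (29.7% and 32.4% of all genes), so the count of lower genes moved by over 1.5 times.

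**Figure D2:**
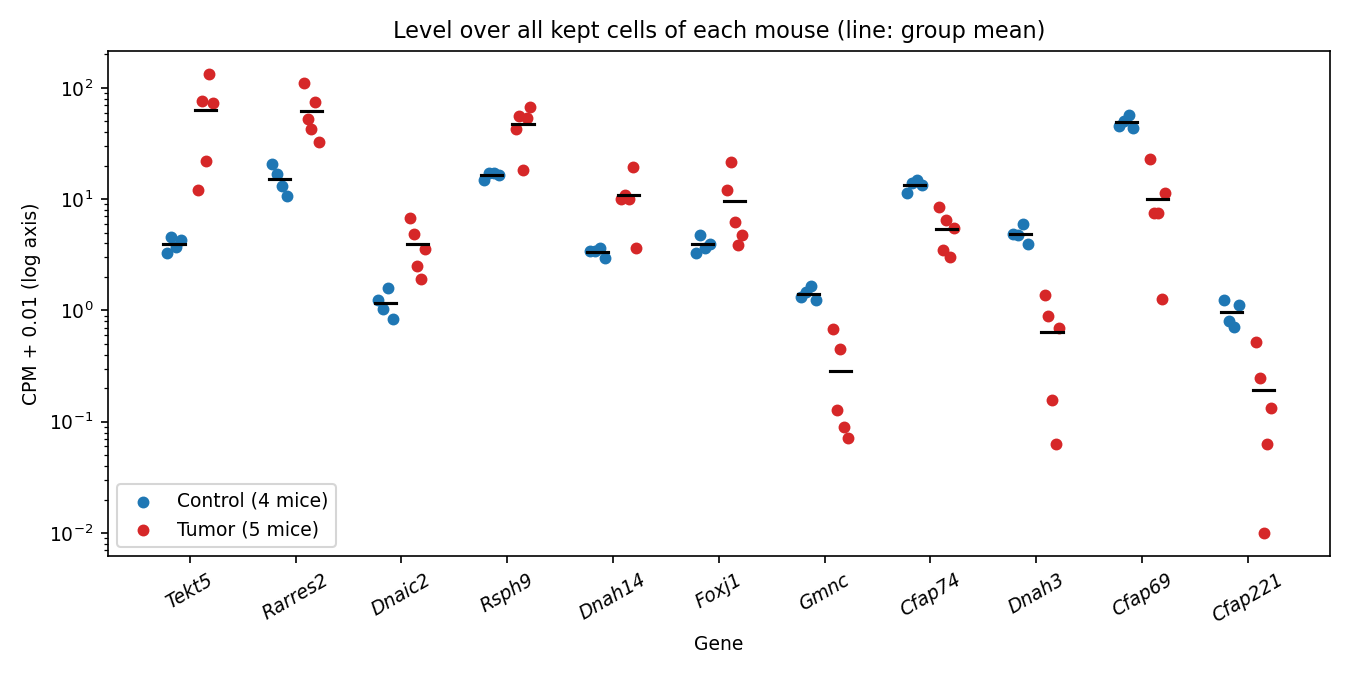
Each point is the level of a gene over all kept cells of 1 mouse (CPM + 0.01, log axis), controls in blue (4 mice) and tumors in red (5 mice), with a line at each group's mean. Tekt5 and Rarres2 are higher in every tumor than in any control, Gmnc, Dnah3 and Cfap69 are lower in every tumor, and Foxj1 overlaps.

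The genes called higher and lower differed in their length in the genome. Of the 33 tested genes of at least 50 kb, 3 were higher and 10 lower with a median log2 fold change of -0.87, and of the 30 shorter genes 9 were higher and 0 lower with a median of 0.64 (edgeR; 10 higher and 1 lower of the short genes at an unadjusted p under 0.05, 10 and 2 in DESeq2, 7 and 1 in limma voom). Over all genes tested the same split gave 947 higher and 1941 lower of 4734 long genes, with a median of -0.42, and 4723 higher and 3231 lower of 12845 short genes, with a median of 0.23.

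Setting fusion-allele cells against the other cells of the same tumor asked which of the genes were higher in the cells that carried the allele. A cell counted as carrying the allele only if an allele UMI was caught in it, and these cells had more UMIs in all 5 tumors (medians of 2951 against 2019, 6283 against 3838, 4314 against 2354, 7001.5 against 5604 and 4528 against 3445). The other cells were a mixture, of which 16.0% to 36.1% were immune or endothelial. With the mouse as a block, 31 genes passed the filter, 7 were higher and 2 lower in fusion-allele cells (edgeR quasi-likelihood test, adjusted p under 0.05), against 15.8% higher and 17.2% lower of all 14030 genes tested. The median log2 fold change was 0.46 over the 31 genes and 0.05 over all genes. In 8 of the 31 the value was higher in fusion-allele cells of every tumor and in 2 it was lower in every tumor, against 40.6% with a shared direction over all genes. With the cells of 4 or more ependymal markers put back, 41 genes could be tested, 6 were higher and 5 lower, against 16.1% and 17.3% of all genes, and the median of the set turned to -0.13.

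Tekt5 had the largest log2 fold change of the genes called. Fusion-allele cells had 92.8, 114, 86.3, 151 and 96.6 CPM in tumors 1 to 5, and the other cells had 7.75, 48.4, 13.9, 70.3 and 57.6 CPM. The lowest fusion-allele value exceeded the highest value of the other cells, with a log2 fold change of 1.65 (SE 0.33, adjusted p = 0.00461, edgeR). Microglia-like cells of the same tumors had 3.21, 6.53, 0.548, 14.1 and 11.3 CPM, and the barcodes with the fewest UMIs had 3.99, 50.4, 30.3, 96.5 and 47.6 CPM, so Tekt5 UMIs were also present in the barcodes with the fewest UMIs, most of all in tumor 4.

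Rsph9 was higher in fusion-allele cells of all 5 tumors (41.6 to 73.6 CPM against 15.1 to 61.4 CPM, log2 fold change 0.90, SE 0.17, adjusted p = 0.00344, edgeR). Cfap298, which helps to assemble dynein arms in the cytoplasm, had 57.6, 67.6, 34.2, 86.6 and 75.6 CPM in fusion-allele cells and 30.6, 42.3, 23.1, 52.2 and 51.1 CPM in the others, a log2 fold change of 0.75 (SE 0.12, adjusted p = 0.00126, edgeR). Cfap300, also an assembly factor, rose by 1.29, the inner-arm heavy chain Dnah7a by 0.96 and Cfap36 by 0.62, each in 5 of 5 tumors. The ranges of the cell groups over the tumors overlapped for all 3. The Dnah7a call was lost without tumor 2 or 5 (adjusted p = 0.0623 and 0.0671, edgeR).

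Foxj1 had 3.20, 20.8, 5.95, 3.65 and 5.04 CPM in fusion-allele cells and 5.91, 11.7, 5.41, 2.80 and 2.02 CPM in the other cells. It was higher in 4 of 5 tumors and lower in tumor 1, with a log2 fold change of 0.74 (SE 0.25, adjusted p = 0.0458, edgeR). The values of fusion-allele cells in tumors 1 and 3 rest on 1 and 4 UMIs. The call was lost without tumor 2 (adjusted p = 0.258), 3 (0.0602), 4 (0.0743) or 5 (0.202), in edgeR, in DESeq2 (adjusted p = 0.101), with library totals (0.0775), with the mitochondrial limit of 10% (0.126), with a luciferase or fusion UMI only (0.0610) and with the ependymal-marker cells put back (log2 fold change 0.48, adjusted p = 0.189). Tekt2, with 0 to 3.20 CPM in fusion-allele cells and 0.521 to 2.98 CPM in the others, was lower by a log2 fold change of -1.54 (adjusted p = 0.0239, edgeR), although in tumor 1 it was higher, on 1 UMI in fusion-allele cells. Cfap69 was lower in 5 of 5 tumors, with a log2 fold change of -0.69 (adjusted p = 0.0422, edgeR). Both calls were lost in DESeq2 (adjusted p = 0.0570 for Tekt2 and 0.0650 for Cfap69), and Tekt2 also in limma voom (0.137). Without tumor 2, 4 or 5 neither gene was called in edgeR (adjusted p = 0.0615 to 0.122), and Cfap69 was not without tumor 1 or 3 (0.0688 and 0.0621), with the mitochondrial limit of 10% (0.105), with 2 or more allele UMIs (0.167) or after thinning (0.999). Tekt2 had too few UMIs to be tested without tumor 1 and in the last 3 settings. Without the mitochondrial filter neither was called (0.192 for Tekt2 and 0.0561 for Cfap69), nor was Foxj1 (0.0658). Cfap69 was also not called in edgeR without the filter on low counts (adjusted p = 0.0744). Against immune-like and endothelial-like cells its log2 fold change was -0.10 (adjusted p = 0.893, edgeR).

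**Figure D3:**
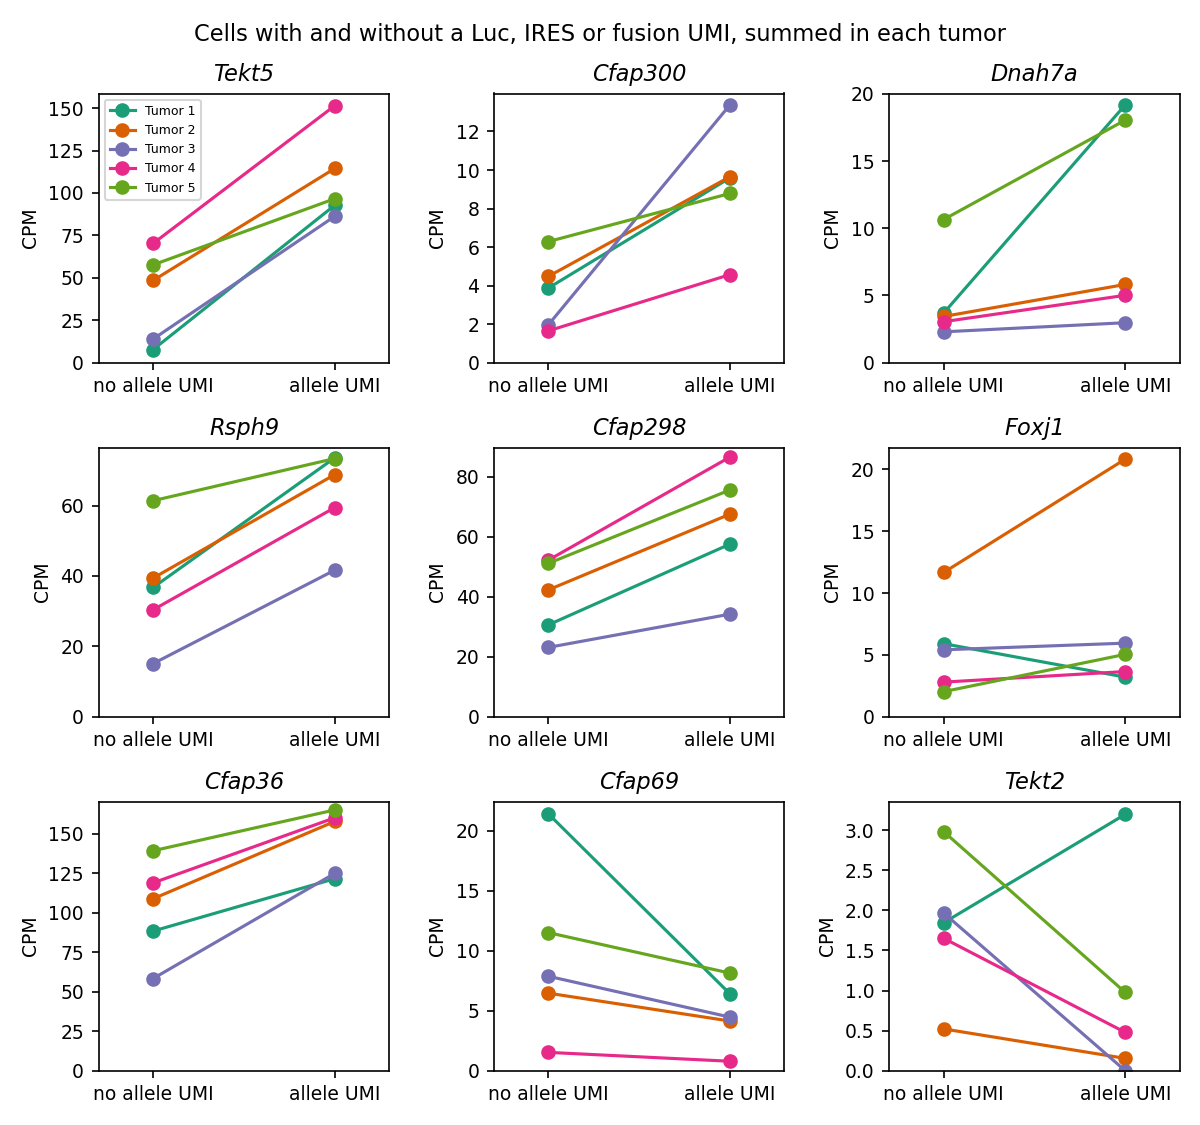
Each line joins the level (CPM, linear axis from 0) in cells without and with a Luc, IRES or fusion UMI of 1 tumor, for the 9 genes called in this comparison. The 5 lines of Tekt5 all rise, to between 86.3 and 151 CPM, while Foxj1 rises in 4 tumors and falls in tumor 1, where fusion-allele cells held 1 Foxj1 UMI.

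Against only the immune-like and endothelial-like cells of the same tumors, 11 of the genes could be tested, and 5 were higher and 0 lower in fusion-allele cells (edgeR; 6 higher and 0 lower at an unadjusted p under 0.05), against 24% higher and 24.3% lower of 12036 genes. With every cell thinned to 2000 UMIs, 16 could be tested, and 4 were higher and 0 lower (edgeR; 7 higher and 1 lower at an unadjusted p under 0.05), against 10.8% and 13.8% of 12328 genes. Tekt5, Rsph9, Cfap298 and Cfap36 were the 4, while Foxj1, Dnah7a and Cfap300 lost their calls (adjusted p = 0.105, 0.110 and 0.170, edgeR). Of the 9 calls, those of Tekt5, Rsph9, Cfap298 and Cfap36 held in every alternative that kept the mouse as a block. Without the mouse as a block, none of the 31 genes was called in either direction (edgeR; 4 were higher and 2 lower at an unadjusted p under 0.05), against 0.164% higher and 4.23% lower of all genes.

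Tekt5 lies on chromosome 16 (GRCm38, 10357948 to 10395490, minus strand) with no annotated gene overlapping it. Its family is known from cilia and from the sperm flagellum, where Tekt5 itself was described. Fusion-allele cells held 5867 of its UMIs, 136.5 CPM over the pooled cells, while the 28 ependymal-like cells of tumors held 0. A limit of 3 counts over their 206492 UMIs is 14.5 CPM, so the fusion-allele cells of tumors 1 to 5 stood at least 6.38-fold, 7.88-fold, 5.94-fold, 10.4-fold and 6.65-fold higher than the pooled ependymal-like cells of tumors. Tumor 4 gave 4439 of the 5867 UMIs but 3 of the 28 ependymal-like cells. The 15 Tagln-led cells held 0 as well.

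The share of fusion-allele cells with a Tekt5 UMI was 18.3%, 44.9%, 27.1%, 59.9% and 32.6% in tumors 1 to 5, and 10.8%, 20.1%, 15.9%, 25.0% and 16.3% after thinning each cell to 2000 UMIs. In microglia-like cells it was 0.858%, 2.27%, 0.328%, 8.00% and 5.10%, or 0.410% to 4.00% after thinning, and in endothelial-like cells it was 0% to 3.33% after thinning. In each tumor the fusion-allele share lay above the microglia-like share both before and after thinning, and above every endothelial-like share after thinning. For Foxj1 the thinned share was 1.54%, 3.74%, 1.22%, 0.824% and 0.926% in fusion-allele cells and at most 0.410% in microglia-like cells and 0.794% in endothelial-like cells. Those of tumors 1 and 3 rest on 1 cell each with a Foxj1 UMI, of 65 and 82, and the highest endothelial-like share on 1 of 126. The thinned share with a UMI of any of the 72 genes was 74.7% ± 1.80 (SD, n = 5) in fusion-allele cells, 36.4% ± 2.98 (SD, n = 5) in microglia-like cells and 51.3% ± 7.54 (SD, n = 5) in endothelial-like cells.

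**Figure D4:**
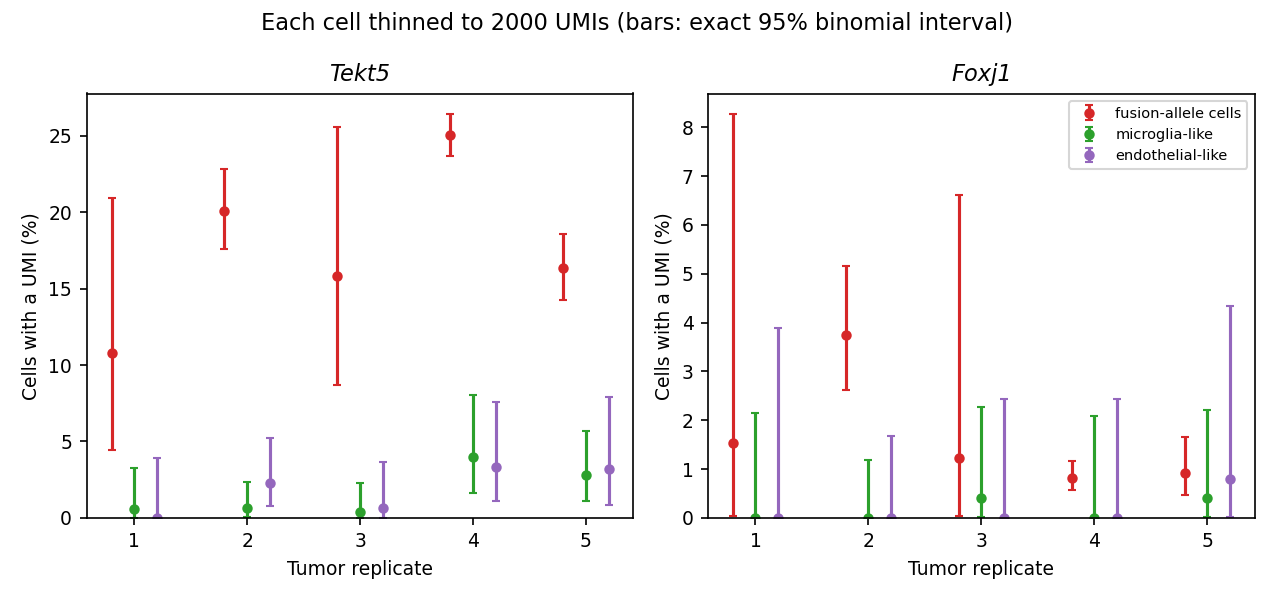
Points give the share of cells (%) with a Tekt5 (left) or Foxj1 (right) UMI in each of 5 tumors after thinning every cell to 2000 UMIs, and bars are exact 95% binomial intervals, for fusion-allele, microglia-like and endothelial-like cells. Tekt5 lies at 10.8% to 25.0% in fusion-allele cells and at 0.410% to 4.00% in microglia-like cells, and Foxj1 lies at 0.824% to 3.74% in fusion-allele cells.

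Among the fusion-allele cells, Tekt5 UMIs were found in each class large enough to measure. Proliferating neural-like cells had 117, 173 and 97.0 CPM of it in tumors 2, 4 and 5, and clusters with Dlk1, H19 or Spp1 as leading genes had 132 and 167 CPM in tumors 2 and 4. Neuroblast-like cells had 92.5, 50.0, 48.2, 62.3 and 104 CPM in tumors 1 to 5, of which tumors 1 to 4 rest on 20 to 40 cells each, and OPC-like cells had 79.7 and 71.8 CPM in tumors 2 and 4. Neuroblast-like cells of tumors 2 and 4 and OPC-like cells of tumor 4 lay at or below the barcodes with the fewest UMIs of their library. Their values do not show that these classes expressed Tekt5. Foxj1 was less even. In tumor 2 it had 29.9 CPM in the proliferating class and 25.3 CPM where Dlk1, H19 or Spp1 led, against 5.10 and 4.05 CPM in the same classes of tumor 4, and no UMI in the 45 OPC-like cells.

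Few UMIs of 4 genes high in ependymal-like cells were found in fusion-allele cells. Tmem212 had 0 UMIs in fusion-allele cells, Ccdc153 a UMI in 0.0821% of them, Ak7 in 0.0493% and Dnah12 in 0.0493%. The 0 of 6089 cells allows a share of up to 0.0493% of cells with a Tmem212 UMI, which is no limit on cells that express the gene. Cells with 4 or more ependymal markers had been set aside from both arms, so these values describe the remaining cells only. In the other tumor cells Tmem212 reached at most 0.923 CPM, and in microglia-like cells of controls it had 2.01 to 6.20 CPM. These values rest on few counts, 19 Tmem212 UMIs over the other tumor cells and 7 over the microglia-like cells of all mice.

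Genes of the same program outside the name patterns gave a wider view. Of 37 tested axoneme and assembly genes, 7 were higher and 7 lower in all kept cells of tumors against controls (6 and 10 in DESeq2), against 32.2% higher and 29.4% lower of all genes, with a median log2 fold change of -0.17. Dnaaf3, a dynein arm assembly factor, rose by 5.59 on the log2 scale, from 0.509 CPM ± 0.268 (SD, n = 4) in controls to 18.6 CPM ± 18.5 (SD, n = 5) in the tumor mice (adjusted p = 0.00123, edgeR), and the assembly factor Dnaaf2 by 1.89. Ccdc39, a ruler of the spacing of spokes and arms, changed by -2.04 and the assembly factor Lrrc6 by -2.90. For the comparison within tumors, cells with 4 or more ependymal markers had been set aside from both arms. Some of those markers, among them Hydin and Spag17, are genes of this same list. Its counts within tumors therefore describe the remaining cells only, and say nothing of the cells set aside. Within tumors 3 of 23 were higher in fusion-allele cells and none was lower (edgeR; 6 higher and 0 lower at an unadjusted p under 0.05, 4 and 0 called in DESeq2), against 15.8% and 17.2% of all genes, namely Spef1 of the central apparatus (log2 fold change 0.76), Mlf1 (1.02) and Dnaaf2 (0.60), with a median of 0.37.

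Of 17 tested regulators of multiciliation and ciliogenesis, 6 were higher and 3 lower in tumors, against 32.2% and 29.4% of all genes, with a median of 0.17. Rfx4, an RFX factor of neural progenitors, stood at 9.77 CPM ± 0.999 (SD, n = 4) in control mice and 52.4 CPM ± 22.3 (SD, n = 5) in tumor mice (log2 fold change 2.71, adjusted p = 0.000388, edgeR), and geminin (Gmnn), which inhibits DNA relicensing and binds GEMC1 and multicilin, rose by 2.60. Rfx1 and Rfx7 changed by -0.84 and -0.55. Within tumors 4 of 13 were higher in fusion-allele cells and none lower (edgeR; 4 higher and 0 lower at an unadjusted p under 0.05, 4 and 0 called in DESeq2), against 15.8% and 17.2% of all genes, with a median of 0.20. Rfx4 had 79.2 CPM ± 23.6 against 41.2 CPM ± 18.3 (SD, n = 5 each; log2 fold change 1.02, adjusted p = 0.00126, edgeR), and the other 3 were Gmnn, E2f5 and Plk4, the kinase that starts centriole duplication. None of the 18 regulators passed the filter in ependymal-like cells. Over the 5 lists of pathway genes outside the 72, 35 of 61 calls between tumors and controls held in every alternative in which the gene was tested, 5 of 23 within tumors in those that kept the mouse as a block (Rfx4, Dync2li1, Ift27, Ift74 and Nphp4), and 1 of 10 in ependymal-like cells (Rpgrip1l).

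The ependymal-like cells themselves were compared between tumors and controls over the mice with at least 5 such cells, controls 2 and 3 and tumors 1, 2 and 5, since only tumor 1 reached 10. Of the 72 genes 37 passed the filter, 2 were higher and 18 lower in tumors (edgeR quasi-likelihood test, adjusted p under 0.05), against 8.33% higher and 17.9% lower of the 1104 genes tested. The median log2 fold change was -1.19 over the 37 genes and 0.15 over all genes. This split depended on the scaling. With library totals without TMM, which raised the median of all genes by 0.71, 9 were higher and 13 lower, against 37.1% and 11% of all genes. Without control 3, which leaves control 2 as the only control and takes the spread from the tumors alone, 0 were higher and 8 lower of 42 tested (edgeR; 2 higher and 14 lower at an unadjusted p under 0.05), against 2.23% and 5.51% of all genes, and with 4 or more markers in place of the sub-cluster 0 were higher and 7 lower of 34 tested (1 higher and 8 lower at an unadjusted p under 0.05), against 15.9% and 18.2%.

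All 9 dynein heavy chains tested were lower, 9 of the 18 lower calls. A gene of any role could pass the filter on low counts through the 2 controls alone. Dnah2 did so, with 10 and 15 UMIs in controls 2 and 3 and 2, 2 and 5 in tumors 1, 2 and 5. So did Dnah3 (24 and 40 against 3, 1 and 9 UMIs) and Cfap46 (18 and 37 against 4, 8 and 10). Dnah7b, Cfap47 and Cfap74 also entered through these 2 controls. Cfap126, called higher, entered through the tumors alone (7 and 3 against 42, 40 and 32 UMIs). Dnah7a, at 138 CPM in ependymal-like cells of controls and 140 CPM in those of tumors, was not tested. The counts of lower genes in ependymal-like cells thus depend in part on the filter. Of the 20 genes called in these cells, Dnah3, Dnah12, Cfap44, Cfap46 and Cfap65 held in every alternative in which they were tested. Among these, Dnah3 and Cfap46 had entered the test through the controls alone. All 9 heavy chains span at least 50 kb, and of all genes of that length 124 of 292 were lower, against 17.9% of all genes tested. Dnah12 had 1076 and 1865 CPM in controls 2 and 3 and 177, 171 and 437 CPM in tumors 1, 2 and 5. Its log2 fold change was -3.21 (SE 0.44, adjusted p = 0.00015, edgeR). Dnah3 had 438 and 957 CPM in the controls and 48.3, 18.99 and 119 CPM in the tumors, with a log2 fold change of -4.10 (SE 0.58, adjusted p = 0.000188, edgeR). The mice not in the fit were control 1 (3 cells), control 4 (1 cell) and tumor 4 (3 cells). In that order they had 648, 1015 and 306 CPM of Dnah12 and 259, 0 and 0 CPM of Dnah3. Over all mice the groups thus overlapped for Dnah3. The other 7 were Dnah2, Dnah5, Dnah6, Dnah7b, Dnah9, Dnah10 and Dnah11, at -1.83 to -3.19, which include motors of the outer arm (Dnah5, Dnah9 and Dnah11) and of the inner arms.

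Of 17 tested genes of the Cfap names, 9 were lower and 1 was higher, against 17.9% lower and 8.33% higher of all genes tested. Cfap46, of the central pair, had 328 and 885 CPM in the controls and 64.5, 152 and 133 CPM in the tumors, Cfap65 had 547 and 909 against 129, 266 and 212 CPM, and Cfap44 had 656 and 1196 against 177, 380 and 292 CPM. The log2 fold changes of these 3 genes were -3.13, -2.60 and -2.48. In control 4, whose single cell was not in the fit, they stood at 0, 254 and 0 CPM, within or below the tumor values, and in control 1 at 583, 778 and 778 CPM. The other 6 were Cfap43, Cfap47, Cfap54, Cfap69, Cfap74 and Cfap100, at -1.19 to -2.80. Cfap126, also called Flattop, a protein of the doublet wall, went the other way with 128 and 71.7 CPM in the controls and 677, 760 and 424 CPM in the tumors (log2 fold change 1.86, SE 0.51, adjusted p = 0.0134, edgeR). In the mice not in the fit it had 454 and 254 CPM in controls 1 and 4 and 367 CPM in tumor 4, so over all mice the groups overlapped. The call was lost in limma voom (adjusted p = 0.0768), without control 3 (adjusted p = 0.0789, edgeR) and with cells of 4 or more markers (adjusted p = 0.577, edgeR).

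Rsph1 had 273 and 167 CPM in the controls and 870, 1234 and 1405 CPM in the tumors, a log2 fold change of 1.66 (SE 0.40, adjusted p = 0.00643, edgeR). In controls 1 and 4 and tumor 4, which were not in the fit, it stood at 518, 761 and 673 CPM, and the call was lost without control 3 (adjusted p = 0.0701, edgeR) and with cells of 4 or more markers (adjusted p = 0.243, edgeR). Ccdc153 (747 and 550 against 2272, 2032 and 1830 CPM, adjusted p = 0.0554) and Dynlrb2 (492 and 239 against 1225, 1007 and 1259 CPM, adjusted p = 0.0709) missed the threshold in edgeR. Foxj1 had 346 and 335 CPM in the controls and 596, 418 and 278 CPM in the tumors, which overlapped. Its log2 fold change was -0.40 with TMM (adjusted p = 0.504, edgeR) and 0.33 with library totals (adjusted p = 0.561, edgeR), so its direction turned with the scaling, as it did for 6 other genes of the set, none of them called with TMM. Tmem212 and Ak7 were not called either (adjusted p = 0.765 and 0.865, edgeR).

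**Figure D5:**
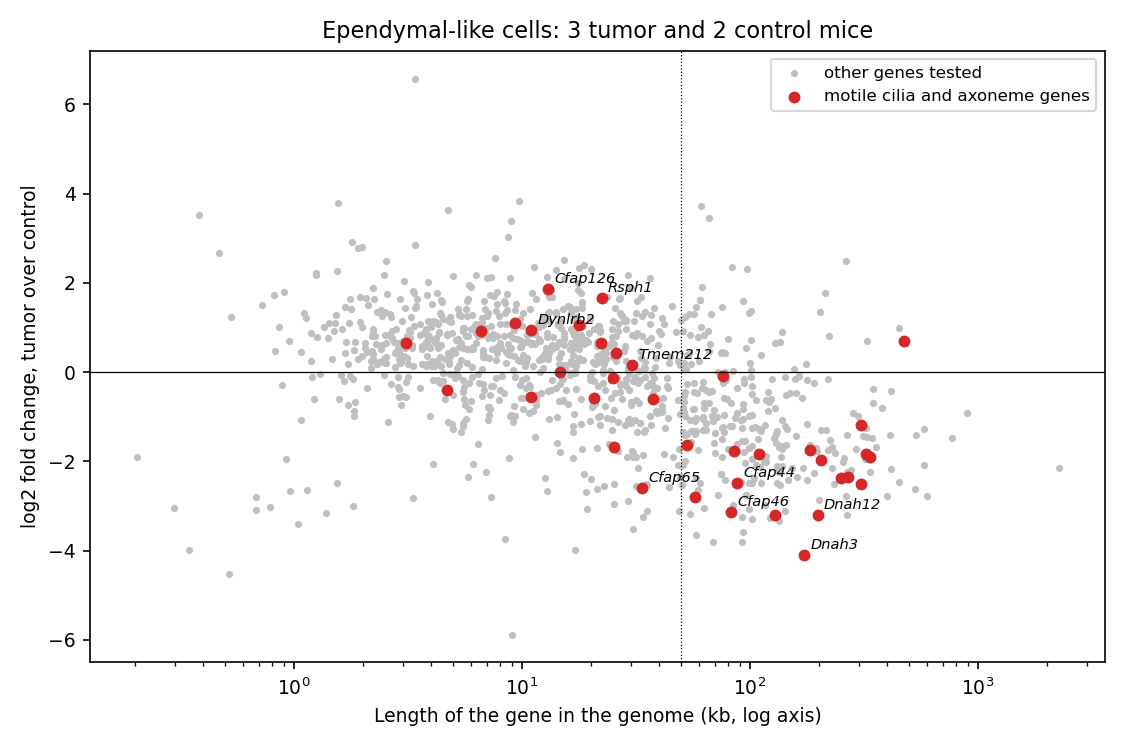
Each point is 1 gene tested in ependymal-like cells, placed by its length in the genome (kb, log axis, dotted line at 50 kb) and its log2 fold change of 3 tumor over 2 control mice, with the motile cilia and axoneme genes in red. Most red points beyond 50 kb lie below 0, with Dnah3 lowest at -4.10, while Rsph1 and Cfap126 lie above 0 among the short genes, and the grey points tilt the same way.

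The calls in ependymal-like cells also split by length in the genome. Of 19 tested genes of at least 50 kb 0 were higher and 16 lower (edgeR; 0 and 17 at an unadjusted p under 0.05, 0 and 15 both in DESeq2 and in limma voom), with a median of -1.96, and of 18 shorter genes 2 were higher and 2 lower, with a median of 0.29. All genes tested showed the same tilt, with 5 higher and 124 lower of 292 long genes (median -1.27) and 87 higher and 74 lower of 811 short genes (median 0.43). As a description across genes that share libraries, Spearman's rho between length and log2 fold change was -0.65 over the 37 genes and -0.46 over 1103 genes. The ependymal-like cells of controls 1 to 4 had 19.3%, 20.4%, 27.8% and 9.54% mitochondrial UMIs, and those of tumors 1, 2, 4 and 5 had 7.70%, 5.64%, 1.96% and 3.17%. The nuclear transcript Malat1 took 2.83% to 6.41% of UMIs in controls and 1.51% to 3.21% in tumors. Ttr, the main secreted product of the choroid plexus, stood at 237 to 311 CPM in the controls and at 16.1, 0, 0 and 0 CPM in the tumors. The choroid was taken out at dissection, per the study's methods, but choroid plexus epithelial-like cells were found in all controls and in tumor 1. The part of cell quality and of free choroid plexus RNA in the lower calls was not tested.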

How the data were processed

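Droplet single-cell libraries of 5 tumor and 4 control mice were grouped by the genotype and title in the labels. The deposited matrices hold raw UMI counts per barcode and gene, which the authors made with Cell Ranger (version 7 per the labels) on mm10 with luciferase, IRES and fusion sequences added. These sequences were kept out of library sizes and tests. Of the 10000 barcodes with the most UMIs per library, those with 200 to 6000 genes were kept unless a mixture of 2 components, fitted per library to mitochondrial share and gene number, put them in the component with more mitochondrial UMIs. The barcodes with the highest scrublet scores were removed as doublets, as many as a rate rising with the number of cells gives. The 3000 barcodes with fewest UMIs in each deposited matrix were summed for comparison. Cells were clustered with scanpy 1.11.5 with the 72 genes left out, and clusters were called X-like from fixed marker lists; the cluster with ependymal markers was split again after the data were seen. Up to 45 barcodes were shared by a pair of libraries. The barcode list of control 4 differs in length from its matrix, so its barcodes were not compared.

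Counts were summed per mouse and population and tested with edgeR 4.0.16 (quasi-likelihood test, TMM, filterByExpr, Benjamini-Hochberg adjustment over all genes tested, two-sided, R 4.3.3). Standard errors are the absolute log2 fold change divided by the square root of F. Within tumors the mouse was a block, and each arm had at least 20 cells. The design for ependymal-like cells asked for 10 cells per mouse in at least 2 mice of each group, which was not met, so its alternative with 5 cells is reported. Alternatives were DESeq2 1.42.0, limma 3.58.1 (voom), no filter, other cell filters, thinning to 2000 UMIs, other definitions of allele-positive and ependymal cells, and each mouse left out. Library totals without TMM, a limit of 8 or more markers, and the Tagln-led cells added to the ependymal-like ones were chosen after seeing the data. The labels name separate samples and p-values measure the spread between these mice only. A test of counts found differences beyond sampling noise between all replicates. Its chi-square per degree of freedom was 4.98 for controls 1 and 2 and 4.34 for controls 3 and 4. For the other pairs of controls it was 9.11 to 12.8, so the controls were closer within these pairs, and the cause was not tested. Intervals and limits from counts cover counting error only.

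The genes named are the 8 spelled out, the 12 others highest in ependymal-like cells, the 5 called genes with the smallest p in each direction of each comparison, and the ends of each role. Others named in the text were chosen after their values were seen. The 72 genes and the 5 pathway lists were chosen with earlier results of these data known. Dyx1c1 of the axoneme list was not used here. Promoters came from RefSeq GRCm38.p6, and gene lengths from GENCODE vM21.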

Additional observations from a re-analysis of the deposited data

Results flagged for a closer look

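In tumor 2, Foxj1 stood at 20.8 CPM in fusion-allele cells, while the next highest tumor had 5.95 CPM. The summed level of the 72 genes in fusion-allele cells was lowest in tumor 3 at 596 CPM, against 721 CPM in the next tumor, and over all kept cells it was again lowest in tumor 3 at 402 CPM, against 737 CPM. In each case the gap to the nearest tumor was large for the range of the 5 tumors by Dixon's criterion. Chance gives such a gap in about 1 in 20 groups, and 49 groups were examined.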

How the results depend on the processing

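Tumors against controls gave 12 higher and 10 lower genes of the set. With replicate numbers as a block the higher count was 7 (4443 of 17594 over all genes), but the numbers do not pair the mice (correlations of same-numbered deviations 0.032, 0.014, 0.005 and 0.046). Leaving out 1 mouse gave 7 to 14 higher (7 without control 3) and 7 to 17 lower (17 without tumor 1). Over all genes, 4889 of 17852 were higher without control 3 and 5878 of 17399 were lower without tumor 1. The lower count was 17 of 63 in limma voom and 22 of 62 without ependymal-marker cells, against 6125 of 17594 and 5187 of 17490 over all genes. Within tumors, 7 higher and 2 lower genes became 0 and 0 without the replicate block and 4 and 0 after thinning. Leaving out 1 tumor gave 5 to 7 higher and 0 to 1 lower, against 971 to 1593 and 1620 to 2386 over all genes. The lower count was 0 in DESeq2, with a mitochondrial limit of 10%, with 2 or more allele UMIs and against immune and endothelial cells, 1 with a luciferase or fusion UMI only, 4 without the filter on low counts and 5 with ependymal-marker cells. Over all genes these settings gave 2152 to 2973 lower. In ependymal-like cells, 2 higher and 18 lower became 1 higher in limma voom, 9 higher without TMM, 4 and 6 without the filter on low counts, and 0 and 7 with cells of 4 or more markers. Over all genes, 55 of 1104 were higher in limma voom and 410 of 1104 without TMM. Without the filter 251 were higher and 72 lower of 13897, and with 4 or more markers 739 and 842 of 4635. Leaving out 1 mouse gave 0 to 3 higher and 8 to 19 lower (0 and 8 without control 3; leaving out a control leaves 1, which is assumed to vary like the tumors). The share of fusion-allele cells with a UMI of the set went from 90.3% to 74.7% with thinning. The causes were not tested. The difference in the ependymal-like share was positive under every definition tried (0.107 to 3.13 percentage points, exact permutation p 0.127 to 0.587) and with each mouse left out (0.0277 to 0.154). No called gene of the 72 that the text names changed sign. Among the pathway genes named, Ift57 did, in ependymal-like cells. The median log2 fold change of the set did: from -0.21 to 0.11 in tumors against controls with the mitochondrial limit of 10%, from 0.46 to -0.10 within tumors without the filter on low counts and to -0.13 with ependymal-marker cells, and from -1.19 to 0.12 in ependymal-like cells without the filter, where 72, 41 and 66 genes entered in the last 3 cases. A minimum of 20 ependymal-like cells and a replicate block for these cells could not be fitted. The small number of ependymal-like cells limits most of what can be said of them.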

Other observations

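Intraflagellar transport, which moves cargo along the axoneme of motile and primary cilia alike, had genes called in both directions. Of 29 genes tested, 7 were higher and 11 lower in all kept cells of tumors against controls (edgeR quasi-likelihood test, adjusted p under 0.05; 7 and 14 in DESeq2), against 32.2% higher and 29.4% lower of all genes, with a median log2 fold change of -0.31. Ift27, a small GTPase of the train, had 24.0 CPM ± 0.795 (SD, n = 4) in control mice and 92.2 CPM ± 51.7 (SD, n = 5) in tumor mice, a log2 fold change of 2.26 (adjusted p = 0.00242, edgeR). The motor subunit Kif3a had 67.3 CPM ± 15.1 (SD, n = 5) and 171 CPM ± 5.09 (SD, n = 4), a log2 fold change of -1.12 (adjusted p = 0.000386, edgeR), and its partner Kifap3 one of -1.26. Within tumors 9 of the 29 were higher in fusion-allele cells and 1, the kinesin Kif17, was lower, against 15.8% and 17.2% of all genes, with a median of 0.34. In DESeq2 7 were higher and 0 lower, with Kif17 at an adjusted p of 0.0767, and its call was also lost in limma voom (0.0565) and without tumor 1, 2, 4 or 5 (0.0786 to 0.149, edgeR). The higher genes included Dync2li1 and Ift27, at 0.76 and 0.69. Of 12 genes tested in ependymal-like cells, Ift57 and Ift22 were called higher and the transport dynein Dync2h1 lower in edgeR, against 8.33% and 17.9% of all genes. Both higher calls were lost in DESeq2 (adjusted p = 0.0886 for Ift57 and 0.139 for Ift22) and limma voom (0.0806 and 0.170). The lower call was lost without the filter on low counts (log2 fold change -1.14, adjusted p = 0.272, edgeR). Without control 3 the log2 fold change of Dync2h1 went from -2.01 to -1.44. With cells of 4 or more markers the log2 fold change of Ift57 went from 3.45 to -0.04 (adjusted p = 0.945), while that of Ift22 was 1.75 (adjusted p = 0.00377, edgeR).

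Of 27 genes of the BBSome and primary cilium, 3 were higher and 10 lower in tumors (14 lower in DESeq2), against 32.2% and 29.4% of all genes, with a median of -0.41. Bbs5 fell by 1.91 on the log2 scale and the transition zone gene Cep290 by 1.28, and Arl6, which recruits the BBSome to membranes, was among the higher genes. Within tumors 5 of the 27 were higher in fusion-allele cells and none lower (edgeR; 6 and 0 at an unadjusted p under 0.05, 4 and 0 called in DESeq2), against 15.8% and 17.2% of all genes. Nphp4 had the largest difference of the genes named, 50.3 CPM ± 17.2 against 20.0 CPM ± 8.21 (SD, n = 5 each, log2 fold change 1.32, adjusted p = 0.00716, edgeR). The cytoplasmic dynein and dynactin genes, motors of general transport, gave 2 higher and 5 lower of 14 in tumors, against 32.2% and 29.4% of all genes, and 0 higher and 1 lower of 13 in fusion-allele cells (edgeR; 4 and 1 at an unadjusted p under 0.05, 2 and 1 called in DESeq2), against 15.8% and 17.2%, where Dync1i1, a chain of neuronal dynein, changed by -1.24.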
